A study of Mus musculus with 12 samples.

Results

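The question was how the transcriptome of mouse embryonic stem cells (ESCs) changes when both Ring1 proteins are lost, set against cells in which the same loss is made good by a wild-type (WT) Ring1B construct. The 6 arrays described here, of 12 in the series, come from 3 lines: the mock line, a stable transfectant of the empty vector, and WT #1 and WT #3, both stably transfected with Flag-tagged WT Ring1B. Each line gave 1 array on day 2 of 4-hydroxytamoxifen (OHT) treatment (OHT+, 800 nM for 24 h) and 1 array without OHT (OHT-). All lines are Ring1A-/-; Ring1B fl/fl; Rosa26::CreERT2, of a 129 and B6 hybrid background, so Ring1A is missing from every array, the OHT- arrays included, and OHT lets the Cre recombinase expressed from the Rosa26 locus delete Ring1B. The mock OHT+ cells are then left with neither protein and the WT OHT+ cells with Ring1B from the construct. The full loss was measured in 1 line on 1 array. A feature of that line cannot be told apart from the loss itself, and an exact permutation test of 1 line against 2 lines cannot go below p = 0.333.

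Ring1A and Ring1B are the closely related catalytic subunits of Polycomb repressive complex 1 (PRC1), which attaches a single ubiquitin to histone H2A. In ESCs the complex sits at the promoters of silent developmental regulators, such as the Hox clusters and other homeobox genes, and variant forms of it that contain E2f6, Mga and Max are known from germ cell genes. Cells that lose PRC1 are known for switching on lineage genes that they normally hold back.

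The arrays (Affymetrix mouse genome arrays) report a log2 signal for each probe set, and a difference of 1 is a doubling of signal. Signals were quantile-normalised over the 12 arrays and probe sets were averaged per gene, which left 16432 genes above a log2 signal of 3.94 on at least 1 array. The change of a line is its OHT+ signal minus its OHT- signal. For each gene the change of the mock line was set against the changes of both WT lines: where it lay above the higher or below the lower of them, the gap is called the margin, written as a negative value below. The 3 mutant lines of the series (I53S and I53A forms of Ring1B) entered the limma fits only to estimate the spread between lines, since the mock class has no second line. "Rose" and "fell" are used below for genes with an adjusted p under 0.05, after Benjamini and Hochberg over all 16432 genes. Listed genes that were not measured had no probe set of their own symbol above that signal.

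The ESC markers were strongly expressed on all 6 arrays. The 6 markers Pou5f1, Sox2, Nanog, Zfp42, Esrrb and Dppa5a had a median log2 signal of 12.19 on the mock OHT+ array and 12.23 on the mock OHT- array, and 12.33 to 12.37 on the 4 WT arrays. Among them Sox2 was lower on the mock OHT+ array, at 11.51, than on the other 5 arrays, where it read 12.03 to 12.18, and Pou5f1 read 12.39 there and 12.56 to 12.87 on the other 5. Markers of fibroblasts, the cell type of the feeder layer, stood higher in the mock line on both of its arrays. The summed linear signal of 19 such genes was 11130 (OHT+) and 8407 (OHT-) in the mock line, and between 4418 and 5665 on the WT arrays. None of the 19 lay under a log2 signal of 3.94 on either mock array, and on the WT arrays only 1 did, on WT #1 OHT+. Their part in the results below was not tested, and in bulk RNA more cells of a type and more RNA per cell cannot be told apart. Rnf2, the gene of Ring1B, read 7.06 (OHT+) and 7.32 (OHT-) in the mock line, 7.32 and 7.27 in WT #1 and 7.16 and 7.39 in WT #3. Nothing used here places its 5 probe sets inside or outside the deleted part, and the deletion was not checked from them.

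More genes lay far above the WT changes than far below them, a balance that turned round with the signals as deposited. The change of the mock line lay above both WT changes for 6241 genes (38.0%) and below both for 6060 genes (36.9%), so lying outside 2 lines is in itself common. With a margin of 1 or more the counts parted: 412 genes lay above (2.51%) and 198 below (1.2%). The 2 WT lines differed from each other by a median of 0.22 over all genes, and by more than 1 for 779 genes. In 248 of the 412 genes (60.2%) and 124 of the 198 genes (62.6%) both WT changes were within 0.5 of 0. Over all genes this held for more, 12934 of 16432 (78.7%). The genes nearest the limit of 1 were, above the WT lines, 4933404K13Rik and Lamp5 just inside it and Crisp4 (0.998) and Rep15 (0.997) just outside it. Below the WT lines they were Mapk1ip1 and Il17d inside, and Ninl (-0.997) and 1700018F24Rik (-0.996) outside.

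**Figure D1:**
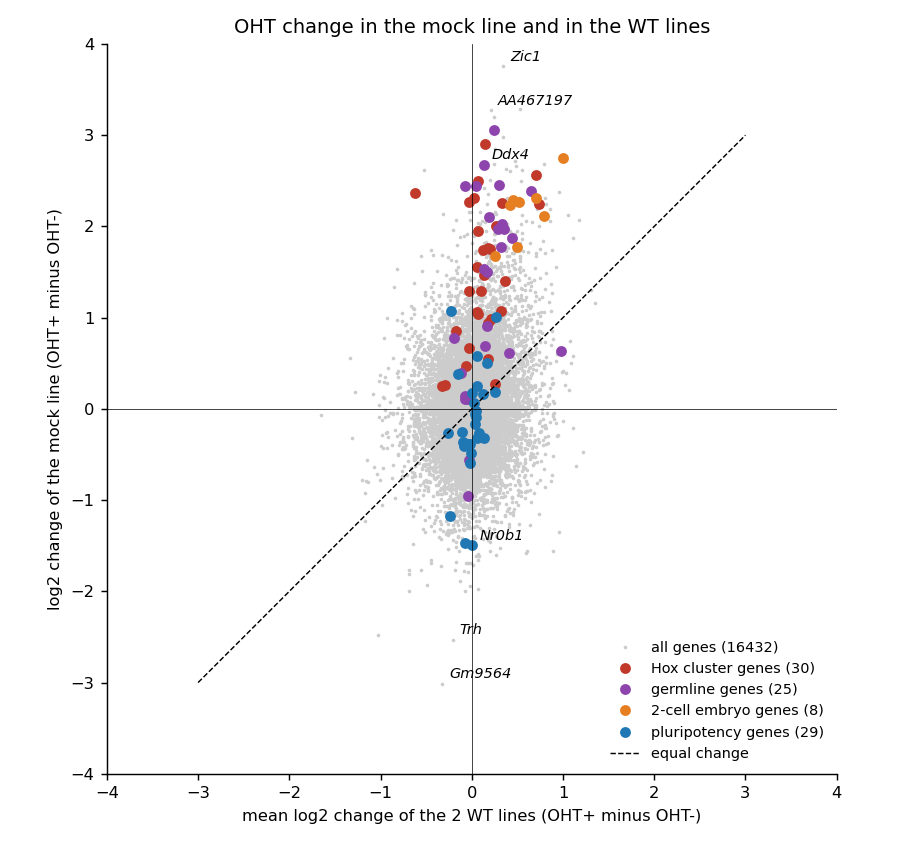
Each point is a gene, with the mean log2 change of the 2 WT lines (OHT+ minus OHT-) on the x axis and the log2 change of the mock line on the y axis. Hox cluster, germline, 2-cell embryo and pluripotency genes are coloured and the dashed line marks equal change. The mock changes run from -3.01 for Gm9564 to 3.76 for Zic1, and 16 of 30 Hox genes, 14 of 25 germline genes and 8 of 8 2-cell embryo genes lie above both WT changes by 1 or more.

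The test of the difference itself, mock minus WT change, passed for 0 genes (0.0%) in limma. At an unadjusted p under 0.05 the change was larger in the mock line for 1338 genes (8.14%) and smaller for 1022 genes (6.22%). The 5 smallest p belonged to Sycp2 (1.5e-05), Zic1 (2.5e-05), Tmem45b (4.1e-05), Crabp1 and Timm8a2 (both 4.3e-05), each with an adjusted p of 0.112 in limma. The count of 0 depended on the setting: with trended and robust priors the difference passed for 453 genes, 276 larger and 177 smaller in the mock line, and with a stricter filter on mean signal for 17. The change within the mock line passed for 212 genes that rose (1.29%) and 63 that fell (0.383%), while 0 genes passed in the WT lines (0.0%), where 1250 genes had an unadjusted p under 0.05. Of the 412 genes above both WT changes by 1 or more, 170 rose in the mock line, and of the 198 below, 48 fell. The margin and the mock call both use the mock change, so this overlap is no separate support for either. These mock calls borrow their spread from the other lines: leaving out any 1 of the WT or mutant lines brought the 275 calls to 0, and with the mock and WT lines alone the count was also 0. Trended and robust priors gave 1340 mock calls and the stricter filter 883. With the signals as deposited the split of mock calls was 175 up and 747 down, and the margins of 1 or more were 164 above and 647 below. In that scaling the median gene of the mock line moved by -0.34, against 0.00 after quantile normalisation.

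Homeobox genes of the Hox clusters, which set position along the body axis, lay above the WT lines with few exceptions. Of 39 listed, 30 were measured, 28 of these lay above both WT changes, 2 lay between them and 0 lay below, and 16 had a margin of 1 or more. The median change was 1.44 in the mock line, 0.03 in WT #1 and 0.15 in WT #3, against 0.00, 0.00 and 0.01 over all genes. In limma 10 Hox genes rose in the mock line and 0 fell, and 0 passed for the difference from the WT lines. Over all genes 38.0% lay above both WT changes, 36.9% lay below both and 2.51% lay above by 1 or more. Genes that rose made up 1.29% of all genes and those that fell 0.383%. These shares are the background for the counts of every list below.

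Hoxa10 read 6.35 (OHT+) and 3.45 (OHT-) in the mock line, 3.10 and 3.22 in WT #1 and 4.11 and 3.70 in WT #3. The mock OHT+ array therefore stood apart from 5 arrays that overlapped with each other. Its mock minus WT difference in change was 2.76 ± 0.27 (SE, limma), and the rise in the mock line was 2.90 (adjusted p = 0.025). Hoxd8, which also rose, read 6.78 (OHT+) and 4.28 (OHT-) in the mock line, 4.79 and 4.87 in WT #1 and 4.80 and 4.58 in WT #3. Hoxb13, the last gene of its cluster, read 7.13 (OHT+) and 4.87 (OHT-) in the mock line and between 4.55 and 4.84 on the WT arrays. Its change within the mock line had an adjusted p of 0.054 in limma, just short of the threshold. Hoxa9, at 7.44 (OHT+) and 5.13 (OHT-) in the mock line and 5.31 to 5.75 on the WT arrays, also missed it (adjusted p = 0.061). These values average 2 probe sets that both lay above the WT changes but were far apart, with differences in change of 0.44 and 4.13. Hoxa11 had the largest margin of the group at 2.75, of which part came from the WT lines, whose signals moved down by 0.85 and 0.39, and its SE was wide at 0.77.

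The counts per cluster are small, and a difference between the 4 clusters was not tested. In the Hoxd cluster 6 of 7 measured genes had a margin of 1 or more and the median mock change was 2.25. The Hoxa cluster had 4 of 7 with a median of 1.76, the Hoxb cluster 4 of 9 with a median of 1.07 and the Hoxc cluster 2 of 7 with a median of 1.04. Hoxb3 and Hoxc6 were the 2 genes whose mock change lay between the WT changes. Hoxb3 read 5.13 (OHT+) and 4.86 (OHT-) in the mock line, 4.57 and 3.93 in WT #1 and 4.55 and 4.69 in WT #3, so that without OHT the mock line was already above every WT array.

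**Figure D2:**
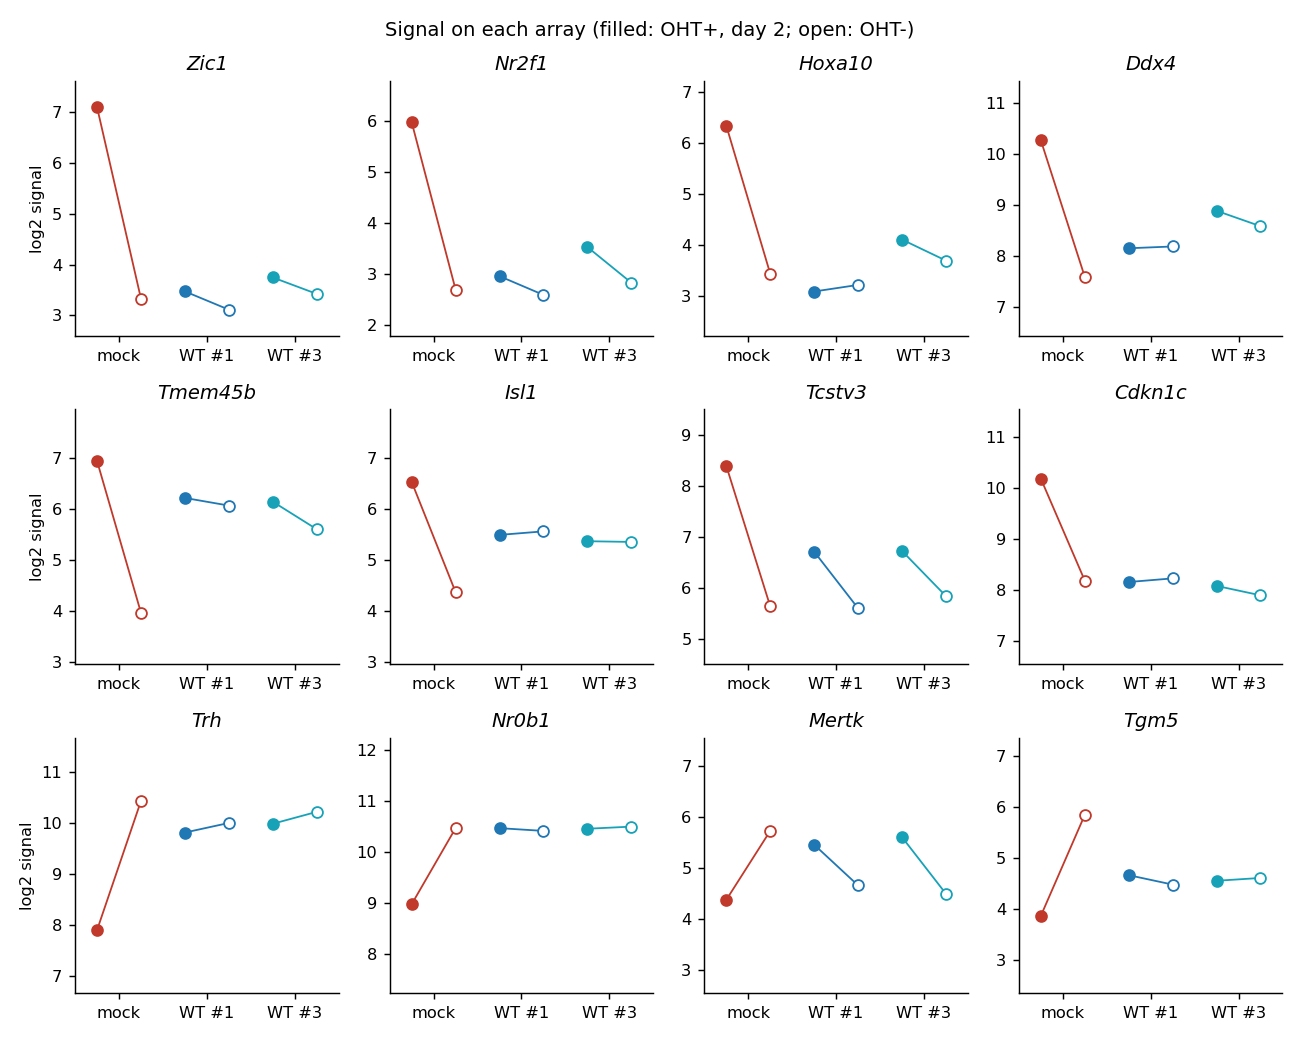
Each panel gives the log2 signal of 1 gene on the 6 arrays, with filled points for OHT+ (day 2), open points for OHT- and a line joining the 2 arrays of a cell line. Every panel spans the same number of log2 units. In Zic1, Nr2f1, Hoxa10 and Cdkn1c the mock OHT+ point is the one that stands apart, while in Tmem45b, Isl1 and Tgm5 the mock OHT- point also lies away from the WT points. In Mertk the mock OHT+ and OHT- points each lie close to a WT #3 point, and the mock line slopes the other way.

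Zic1, a zinc finger transcription factor of the neural tube and neural crest, had the largest margin of all genes above the WT lines. Its signal was 7.08 (OHT+) and 3.33 (OHT-) in the mock line, 3.47 and 3.11 in WT #1 and 3.75 and 3.42 in WT #3. The margin was 3.40, both of its probe sets lay above the WT changes, and the difference in change was 3.42 ± 0.28 (SE). Nr2f1, an orphan nuclear receptor of the developing brain, read 5.98 (OHT+) and 2.70 (OHT-) in the mock line and between 2.60 and 3.53 on the WT arrays. Otx1, a homeobox gene of the forebrain, read 5.87 (OHT+) and 3.15 (OHT-) in the mock line and between 3.22 and 3.94 on the WT arrays. All 3 genes rose in the mock line (adjusted p of 0.025, 0.025 and 0.033 in limma) and lay within or under the range of the WT arrays without OHT.

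Over the whole list of neural transcription factors the changes were smaller. Of 42 measured from 52 listed, 33 lay above both WT changes and 7 below, 6 above by 1 or more and 1 below, and 6 rose in the mock line. The median change was 0.68 in the mock line, 0.07 in WT #1 and 0.10 in WT #3. Without the signal filter, over 46 genes, the mock median was 0.54. Irx5, an Iroquois homeobox gene, rose to 6.53 in mock OHT+ cells, against 4.75 in mock OHT- cells, and the WT arrays lay between 4.15 and 4.71. The gene below by 1 or more, named after its values were seen, was Zic5, a relative of Zic1, at 6.97 (OHT+) and 8.38 (OHT-) in the mock line and 7.37 to 7.74 on the WT arrays. Its change missed the threshold (adjusted p = 0.064 in limma), and its mock OHT- signal was above all 4 WT arrays.

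Transcription factors of mesoderm and limb gave a similar picture, with a median change of 0.69 in the mock line, 0.06 in WT #1 and 0.26 in WT #3. Of 40 measured from 46 listed, 34 lay above both WT changes and 4 below, 7 by 1 or more and 0 below by 1 or more, and 7 rose. Alx1, a homeobox gene of the face, read 5.37 (OHT+) and 3.15 (OHT-) in the mock line and 3.28 to 3.88 on the WT arrays. Cdx1, a homeobox gene of the caudal embryo, read 6.44 (OHT+) and 4.50 (OHT-) in the mock line and 4.55 to 5.33 on the WT arrays. Both rose in limma (adjusted p of 0.032 and 0.039). Shox2, a homeobox gene of limb and heart, read 5.74 (OHT+) and 4.06 (OHT-) in the mock line and 3.40 to 3.88 on the WT arrays, and its change missed the threshold at an adjusted p of 0.054. Isl1, a LIM homeobox gene of heart progenitors and motor neurons, rose to 6.54 in mock OHT+ cells, against 4.38 in mock OHT- cells. The WT arrays lay between 5.36 and 5.57, so the mock line stood under the WT arrays without OHT and over them on day 2.

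Among endoderm genes 6 of 20 had a margin of 1 or more above the WT lines and 0 below, and 5 rose. Gata6, a regulator of primitive endoderm, rose to 6.35 in mock OHT+ cells, against 4.55 in mock OHT- cells, with WT arrays between 5.14 and 5.48 and all 3 probe sets on the same side. Foxa2, a regulator of definitive endoderm and the floor plate, rose to 6.09 in mock OHT+ cells, against 4.21 in mock OHT- cells, with WT arrays between 3.94 and 4.66. Amn, a membrane protein of the visceral endoderm, read 7.88 (OHT+) and 5.81 (OHT-) in the mock line and 6.33 to 6.87 on the WT arrays. Sox17 read 5.84 (OHT+) and 4.41 (OHT-) in the mock line, 4.40 and 4.54 in WT #1 and 5.56 and 5.63 in WT #3, so that the mock OHT+ signal was only just above WT #3. Hnf4a had a difference in change of 0.26 ± 0.25 (SE), which was not distinguishable from 0. Trophectoderm genes had a median change of 0.67 in the mock line, -0.02 in WT #1 and 0.10 in WT #3, with 2 of 15 above by 1 or more and 0 called. Those 2 were Tfap2a, with a margin of 1.54 and all 3 probe sets above the WT lines, and Cdx2, whose difference of 1.75 had an SE of 0.66.

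Germ cell genes had a median change close to that of the Hox genes, but from a lower start relative to the WT lines. Of 25 measured from 27 listed, 21 lay above both WT changes, 14 of them by 1 or more, and 2 lay below. Over all genes these shares were 38.0%, 2.51% and 36.9%. The median change was 1.53 in the mock line, 0.08 in WT #1 and 0.23 in WT #3, and 12 rose and 0 fell in the mock line. Before OHT the median mock minus WT level was -0.39, against 0.02 for the Hox genes, and on day 2 it was 0.71, against 1.22. Without OHT the mock line lay below both WT lines for 17 of the 25, against 36.3% of all genes. Sycp2, a protein of the axial elements of meiotic chromosomes, read 6.09 (OHT+) and 3.65 (OHT-) in the mock line, 3.42 and 3.42 in WT #1 and 4.04 and 4.20 in WT #3. It had the smallest p of any gene for the difference in change, 2.52 ± 0.19 (SE). Ddx4, the Vasa RNA helicase of germ cells, read 10.27 (OHT+) and 7.59 (OHT-) in the mock line, 8.15 and 8.18 in WT #1 and 8.88 and 8.58 in WT #3. Tdrkh, a factor of piRNA processing, read 8.01 (OHT+) and 5.56 (OHT-) in the mock line and 6.39 to 6.86 on the WT arrays. Dazl, an RNA-binding protein of germ cells, read 9.85 (OHT+) and 7.74 (OHT-) in the mock line and 8.22 to 8.79 on the WT arrays. In these last 3 genes the mock OHT+ array was above and the mock OHT- array below all 4 WT arrays. Tex101 read 6.96 (OHT+) and 3.90 (OHT-) in the mock line, but WT #1 and WT #3 moved in opposite directions, by 1.05 and -0.56, and its change did not pass (adjusted p = 0.073). The list did not move as a whole: Sycp3, at 9.32 (OHT+) and 9.18 (OHT-) in the mock line, lay among WT arrays of 9.17 to 9.54.

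The promoter sequences of the germ cell genes were not used to choose them, though the list was chosen with earlier results of these data known. The motif CACGTG, an E-box that proteins of the Max and Mga kind are known to bind, reads the same on both strands. It was searched in 300 bases per gene, 250 before to 50 after the start site (RefSeq, GRCm38.p6), which were at hand for 13107 of the 16432 genes and for 24 of the 25 germ cell genes. It was in 13 of these 24 (54.2%), against 1237 of all 13107 (9.44%), and these letters were not in the windows of Sycp2, Dazl, Tdrkh and Tex101, among others. It was in 8 of the 13 with a margin of 1 or more (61.5%) and in 5 of the 11 others (45.5%). Among all genes with a margin of 1 or more above the WT lines it was in 42 of 300 (14.0%), and below them in 12 of 159 (7.55%). Among genes that rose it was in 31 of 158 (19.6%), and in 24 of 147 (16.3%) with the germ cell genes left out. Windows around the motif are shown for 6 germ cell genes that rose and for Zic1, each 5′ to 3′ on the strand of the gene with the motif in capitals.
Ddx4: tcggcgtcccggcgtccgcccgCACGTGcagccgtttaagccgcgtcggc
Sycp1: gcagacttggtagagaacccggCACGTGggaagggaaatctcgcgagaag
Rbm46: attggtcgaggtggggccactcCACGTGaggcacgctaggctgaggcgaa
Taf7l: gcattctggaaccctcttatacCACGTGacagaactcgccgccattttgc
Stk31: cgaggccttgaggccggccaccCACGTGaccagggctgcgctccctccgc
Slc25a31: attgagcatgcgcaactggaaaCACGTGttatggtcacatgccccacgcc
Zic1: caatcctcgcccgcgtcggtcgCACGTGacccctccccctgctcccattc
These windows lie at chr13:112652312-112652361 (Ddx4), chr3:102936167-102936216 (Sycp1), chr3:82876490-82876539 (Rbm46), chrX:134476512-134476561 (Taf7l), chr6:49395462-49395511 (Stk31), chr3:40708756-40708805 (Slc25a31) and chr9:91365839-91365888 (Zic1). The motif began 29 bases before the start site in Ddx4, 34 in Rbm46, 49 in Taf7l, 55 in Stk31, 93 in Slc25a31, 94 in Sycp1 and 98 in Zic1. A match describes the letters only and shows no binding.

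The CpG content of the promoters is given as a description. The median number of CG in the 300 bases was 18 over all genes. It was 20 for genes that rose in the mock line but 16 for those with a margin of 1 or more above the WT lines, so the 2 upward sets lay on either side of all genes. It was 10 for genes that fell and 7 for those with a margin of 1 or more below. At least 10 CG were found in 71.9% of all promoters, in 77.8% of those of genes that rose and 66.3% of those with the margin above, and in 51.0% of those of genes that fell and 44.0% of those with the margin below. All 24 germ cell promoters held at least 10. The 2-cell embryo genes had 0 of 5, with a median of 2.

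The 2-cell embryo genes, transcripts of the stage of zygotic genome activation that a small share of ESCs expresses at any time, had the largest median of the lists. Of 17 listed, 8 were measured, and all 8 lay above both WT changes by 1 or more. Their median change was 2.25 in the mock line, but it was also 0.63 in WT #1 and 0.51 in WT #3, so the WT lines did not stay level. Tcstv3 read 8.40 (OHT+) and 5.65 (OHT-) in the mock line, 6.72 and 5.61 in WT #1 and 6.73 and 5.85 in WT #3. Tcstv1 read 10.07 (OHT+) and 7.78 (OHT-) in the mock line, 8.02 and 7.58 in WT #1 and 8.75 and 8.30 in WT #3. Both rose in the mock line, and on day 2 the mock array was the highest of the 6. Zfp352 and Usp17la had margins of 1.51 and 1.47 and did not pass (adjusted p of 0.067 and 0.064). Tcstv1, Tcstv3 and Usp17la belong to families of near-identical copies, so their probe sets may read several genes. The difference in day 2 level, mock minus WT, passed for 0 of the 8.

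**Figure D3:**
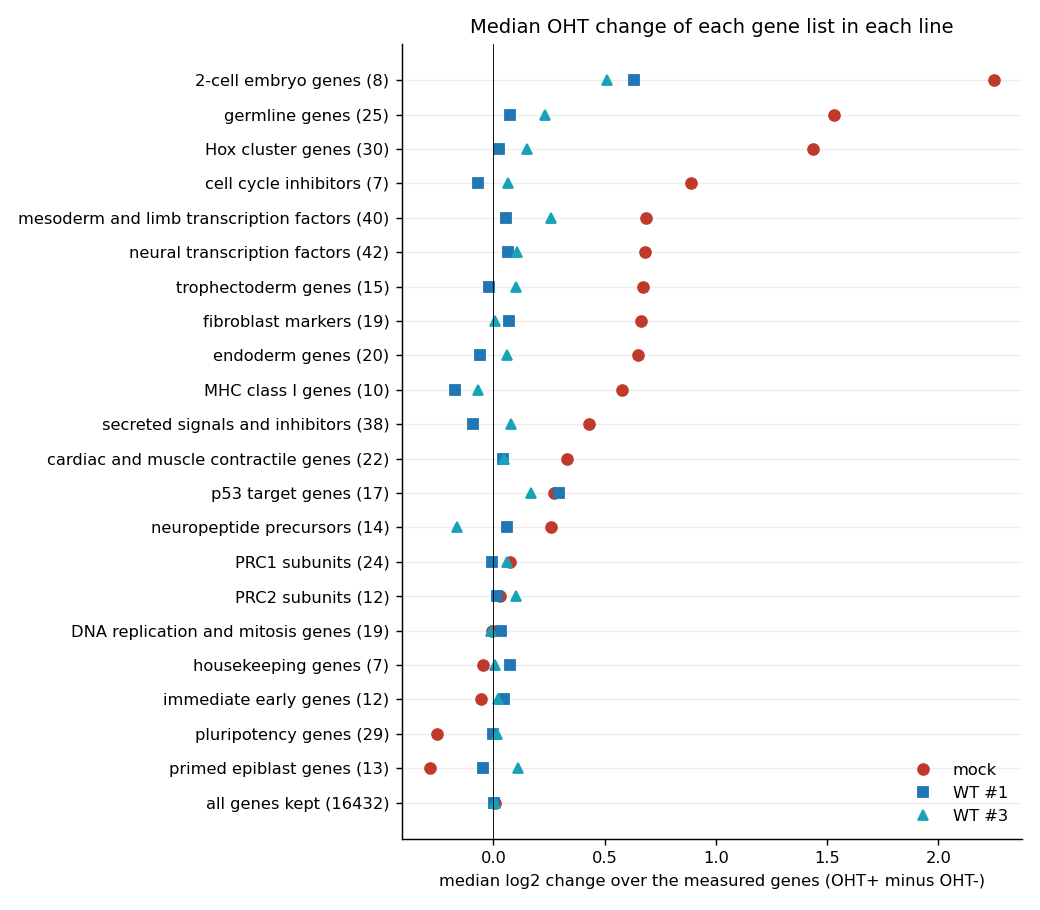
Median log2 change (OHT+ minus OHT-) over the measured genes of each list, with the number of genes in parentheses, for the mock line (circles), WT #1 (squares) and WT #3 (triangles). The 2-cell embryo, germline and Hox lists reach 2.25, 1.53 and 1.44 in the mock line, the pluripotency list lies at -0.26, and both WT lines stay within 0.26 of 0 in all lists but the 2-cell embryo list and, for WT #1, the p53 target list (0.29).

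Secreted signals were mixed. The list had 38 measured genes, 4 above both WT changes by 1 or more and 1 below, and 1 rose and 1 fell in the mock line. Its median difference of 0.33 from the WT lines became -0.05 with the signals as deposited, but relative to the median of all genes it was 0.32 in the quantile-normalised data and 0.29 as deposited. Bmp2, a bone morphogenetic protein, read 6.01 (OHT+) and 3.39 (OHT-) in the mock line, 3.04 and 4.03 in WT #1 and 4.61 and 4.66 in WT #3. Its margin of 2.67 was the fourth largest above the WT lines, but the spread between lines was wide (difference 3.14 ± 1.12, SE) and its adjusted p in the mock line was 0.201. Bmp6 read 6.01 (OHT+) and 4.33 (OHT-) in the mock line and 4.08 to 5.49 on the WT arrays, with an adjusted p of 0.064. Fgf17, a fibroblast growth factor of the brain, was the member that fell, to 4.996 in mock OHT+ cells, against 6.94 in mock OHT- cells, with 6.35 and 6.15 in WT #1 and 6.72 and 6.95 in WT #3. Neuropeptide precursors held the second largest margin below the WT lines. Trh, the precursor of thyrotropin-releasing hormone and strongly expressed in these cells, fell to 7.90 in mock OHT+ cells, against 10.43 in mock OHT- cells. WT #1 read 9.81 (OHT+) and 9.998 (OHT-) and WT #3 read 9.98 and 10.22, so only the mock OHT+ array was low. Penk, the precursor of the enkephalins, rose to 7.47 in mock OHT+ cells, against 6.04 in mock OHT- cells, with WT arrays between 5.90 and 6.36.

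Cell cycle inhibitors and the Polycomb genes themselves were also examined. Cdkn1c, the imprinted inhibitor p57, rose to 10.18 in mock OHT+ cells, against 8.18 in mock OHT- cells, and the 4 WT arrays lay between 7.89 and 8.22. Cdkn2a, the Ink4a/Arf locus that PRC1 is known to repress, read 8.36 (OHT+) and 7.34 (OHT-) in the mock line and 7.39 to 7.81 on the WT arrays, and did not pass (adjusted p = 0.126). Cdkn2c had a margin of 1.03 and did not pass. Of 24 PRC1 subunit genes, 2 rose. Bmi1, a partner of Ring1B in canonical PRC1, rose to 8.46 in mock OHT+ cells, against 7.03 in mock OHT- cells, with WT arrays between 7.62 and 7.87. Phc2, a Polyhomeotic subunit, rose to 8.81 in mock OHT+ cells, against 7.56 in mock OHT- cells, with WT arrays between 7.42 and 7.82. The median change of the PRC1 genes was 0.07 in the mock line (-0.27 as deposited, where all genes had a median of -0.34, and -0.06 with the stricter filter on mean signal), -0.01 in WT #1 and 0.06 in WT #3. Ring1, the gene of the deleted Ring1A, read 5.24 (OHT+) and 5.29 (OHT-) in the mock line and 5.73 to 6.49 on the WT arrays. Of 12 PRC2 subunit genes, 0 had a margin of 1 or more and 0 passed, and their margins ran from -0.21 for Eed to 0.10 for Aebp2.

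More pluripotency genes lay below both WT changes than above them, mostly by less than 1. Of 29 measured, 7 lay above both WT changes and 18 below, against 38.0% and 36.9% of all genes. By 1 or more, 1 lay above and 2 below. The median change was -0.26 in the mock line, 0.00 in WT #1 and 0.02 in WT #3. At an unadjusted p under 0.05 in limma the change was smaller in the mock line for 5 and larger for 3, against 6.22% and 8.14% of all genes. Nr0b1, an orphan nuclear receptor also called Dax1, fell to 8.97 in mock OHT+ cells, against 10.46 in mock OHT- cells, and the WT arrays lay between 10.41 and 10.49. Its mock OHT- array was level with the WT arrays, and the difference in change was -1.50 ± 0.19 (SE). Eras, an ESC-specific Ras protein, fell to 9.15 in mock OHT+ cells, against 10.61 in mock OHT- cells, with WT arrays between 10.09 and 10.35. Dppa3, also called Stella, was the member that rose, to 11.28 in mock OHT+ cells, against 10.21 in mock OHT- cells, with WT arrays between 9.40 and 10.11. For Pou5f1 and Sox2 the difference in change was -0.48 ± 0.19 and -0.58 ± 0.18 (SE), and for Nanog 0.20 ± 0.22, which became -0.20 with the signals as deposited, where the median over all genes was -0.34. None of these 3 passed for the mock change. Of 13 primed epiblast genes 0 passed, and Foxd3, at 6.67 (OHT+) and 7.59 (OHT-) in the mock line and 7.41 to 7.86 on the WT arrays, had a margin of -1.06.

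Genes outside the lists fell as well. Actn3, the alpha-actinin of fast muscle fibres, fell to 6.63 in mock OHT+ cells, against 8.52 in mock OHT- cells, with WT arrays between 7.98 and 8.34. Smarca1, an ISWI chromatin remodeller, fell to 5.84 in mock OHT+ cells, against 7.63 in mock OHT- cells, with WT arrays between 6.91 and 7.12. Glod5 fell to 5.10 in mock OHT+ cells, against 7.09 in mock OHT- cells, with WT arrays between 6.06 and 6.24. Of 12 immediate early genes, 2 had a margin of 1 or more below the WT lines. Egr1 fell to 6.24 in mock OHT+ cells, against 8.23 in mock OHT- cells, but it also moved down by 0.85 in WT #1 and 0.52 in WT #3. Myc read 7.28 (OHT+) and 8.38 (OHT-) in the mock line and 7.33 to 7.82 on the WT arrays, and did not pass (adjusted p = 0.060). Gm9564 had the largest margin below at -2.45, with an SE of 0.78 for its difference, and it did not pass (adjusted p = 0.088).

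Lists of general cell state held few calls. The 19 replication and mitosis genes had a median change of -0.01 in the mock line, 0.03 in WT #1 and -0.01 in WT #3, with margins between -0.36 and 0.37. The 7 housekeeping genes lay between -0.28 and 0.12. Of 17 p53 target genes, 1 rose, Pmaip1, the pro-apoptotic Noxa, at 11.69 (OHT+) and 10.47 (OHT-) in the mock line and 10.43 to 10.95 on the WT arrays. Genes of MHC class I and its antigen processing had a median change of 0.58 in the mock line, -0.17 in WT #1 and -0.07 in WT #3. Of these 10, 2 lay above by 1 or more (Psmb8 at 1.73 and H2-K1 at 1.03) and 0 were called. Psmb8 moved by 0.98 in the mock line and by -0.75 and -0.89 in WT #1 and WT #3, so part of its margin came from the WT lines. Among 22 cardiac and muscle contractile genes 1 rose and 1 had a margin of 1 or more, Myh7, which did not itself pass (adjusted p = 0.076). Of the 19 fibroblast markers, 1 rose: Thy1, a surface glycoprotein of fibroblasts and neurons, at 8.04 (OHT+) and 6.72 (OHT-) in the mock line and 6.45 to 6.82 on the WT arrays. The median change of these markers was 0.66 in the mock line, 0.07 in WT #1 and 0.01 in WT #3. Col1a1, a fibrillar collagen, read 8.36 (OHT+) and 7.56 (OHT-) in the mock line and 5.88 to 6.60 on the WT arrays, so it was higher in the mock line at both times. The part of the fibroblast signal in the other lists was not tested.

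A change has a start and an end, and the mock line did not always start where the WT lines did. Before OHT, mock minus WT levels passed for 0 genes (0.0%) in limma, with 866 at an unadjusted p under 0.05. Over all genes the mock OHT- array lay below both WT OHT- arrays for 36.3% and above both for 30.4%. Among the 412 genes with a margin of 1 or more above the WT lines it lay below both for 303 genes (73.5%), between them for 72 and above both for 37. Among the 198 genes below the WT lines it lay above both for 157 genes (79.3%). All 6 arrays enter the changes that chose these genes, so these counts and the levels that follow describe the choice and are no result about it. Expressed as levels, the median of the 412 genes was 6.01 (OHT+) and 4.44 (OHT-) in the mock line and 4.73 (OHT+) and 4.91 (OHT-) in the mean of the WT lines. On day 2 the mock array was above all 4 WT arrays for 358 of the 412, and by at least 1 for 145. It was below all 4 for 156 of the 198, and by at least 1 for 22.

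**Figure D4:**
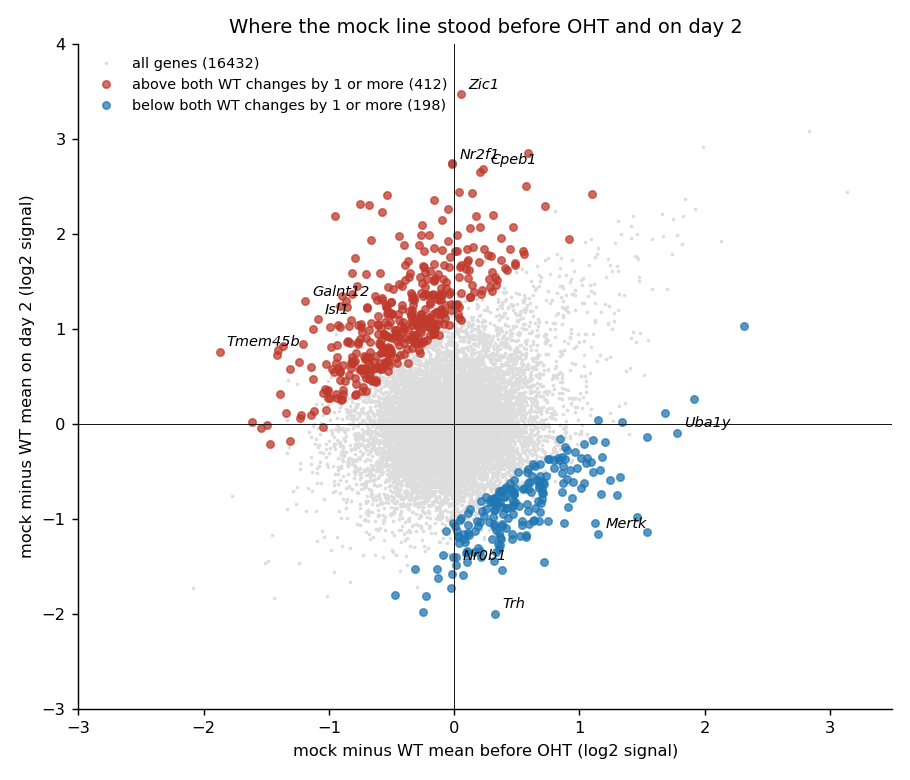
Each point is a gene, with the mock minus mean WT log2 signal before OHT on the x axis and the same difference on day 2 on the y axis. The 412 genes above both WT changes by 1 or more are red and the 198 below are blue. Zic1, Nr2f1 and Cpeb1 start within 0.23 of the WT lines and end 2.68 or more above them, whereas Tmem45b starts 1.87 below and ends 0.76 above, and Uba1y starts 1.78 above and ends 0.09 below.

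Genes with like margins started at different levels, with a continuous range between the examples given here. Zic1, Nr2f1, Hoxa10, Sycp2 and Bhmt2 started within 0.16 of the WT mean and ended between 2.26 and 3.47 above it. Cpeb1, a regulator of the poly(A) tails of maternal mRNAs, started 0.23 above and ended 2.68 above, with 7.38 (OHT+) and 5.25 (OHT-) in the mock line and 4.45 to 5.33 on the WT arrays. Tmem45b, with a margin close to that of Cpeb1, read 6.94 (OHT+) and 3.96 (OHT-) in the mock line, 6.22 and 6.07 in WT #1 and 6.14 and 5.60 in WT #3. It thus started 1.87 below the WT mean and ended 0.76 above it, so most of its change brought it up to the WT level. Galnt12, an enzyme of O-glycosylation, started 1.19 below and ended 1.29 above, and Isl1 started 1.09 below and ended 1.10 above. Cebpa, a transcription factor of fat, liver and myeloid cells, started 0.81 below and ended 1.59 above.

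Genes that moved down also differed in their start. Trh, Nr0b1 and Actn3 started between 0.01 and 0.32 above the WT mean and ended between -1.997 and -1.44 relative to it. Mertk, a receptor tyrosine kinase, read 4.38 (OHT+) and 5.73 (OHT-) in the mock line, 5.46 and 4.66 in WT #1 and 5.61 and 4.50 in WT #3, so that the mock and WT lines crossed. Tgm5, a transglutaminase, fell to 3.86 in mock OHT+ cells, against 5.84 in mock OHT- cells, and started 1.30 above the WT mean. Uba1y, a ubiquitin-activating enzyme of the Y chromosome, fell to 3.94 in mock OHT+ cells, against 5.54 in mock OHT- cells, with WT arrays between 3.59 and 4.06, so it only returned to the WT level.

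The comparison of levels on day 2 does not use the mock OHT- array. In it 43 genes were higher (0.262%) and 5 lower (0.0304%) in the mock line than in the WT lines in limma. Of these 48, 34 also changed within the mock line, and 35 of the 43 higher genes had a margin of 1 or more above the WT changes, measures that share the mock OHT+ array (and for the margin the WT OHT+ arrays) with this comparison and are no separate support for it. Hox genes made up 8 of the 43, against 30 of all 16432 genes. Hoxa10 stood at 2.75 ± 0.40 (SE) and Hoxb13 at 2.43 ± 0.31 above the WT mean. Zic1 was the first of the other homeobox and zinc finger genes at 3.47 ± 0.26 (adjusted p = 0.0028), followed by Nr2f1 at 2.74 ± 0.33. Shox2, at 2.19 ± 0.24, and Hmx1, a homeobox gene of sensory organs, at 2.41 ± 0.27, were also among them. Rbm46 and Sycp1 were the 2 germ cell genes of the 43. The first, an RNA-binding protein of germ cells, read 6.02 on the mock OHT+ array, against 3.26 in WT #1 and 3.91 in WT #3 on day 2. None of the 5 lower genes belonged to a list. They were Zfp229, Astl, Kcnj16, Dnase2a and 1700113H08Rik, named after their values were seen, with Zfp229 at 6.53 on the mock OHT+ array, against 8.73 in WT #1 and 8.28 in WT #3. Much of the day 2 difference was there before OHT in some of the 48 genes and little of it in others. The mock minus WT mean level before OHT and on day 2 was -0.96 and -1.56 for Astl and 1.12 and 1.76 for Mylk. It was -0.25 and -1.98 for Zfp229 and 0.06 and 3.47 for Zic1. The count of 48 became 0 with either WT line left out, 0 with the mock and WT lines alone and 4 with the signals as deposited.

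Dim signals and single probe sets limit these values. Of the 412 genes, 145 lay under a log2 signal of 3.94 on the mock OHT- array, where array signals compress differences, and 6 on the mock OHT+ array. Of the 198, 77 lay under it on the mock OHT+ array. Of all 16432 genes, 2039 lay under it on the mock OHT- array and 1943 on the mock OHT+ array. A probe set was kept if 1 array passed this signal, so a dim gene could enter through the mock OHT+ array alone. Without the filter the median mock change was 1.295 against 1.44 for Hox genes, and 0.54 against 0.68 for neural transcription factors. It was 0.20 against 0.43 for secreted signals and 0.14 against 0.26 for neuropeptide precursors. For germ cell genes it was 1.515 against 1.53, and for 2-cell embryo genes 2.25 in both. A single probe set stood for 329 of the 412 and 161 of the 198, against 8625 of all 16432 genes. Of the 83 and 37 genes with several, every probe set lay outside both WT changes on the same side in 79 and 35. Over all genes this was so for 2010 of 7807. The mean of the same probe sets chose the genes, so this agreement comes in part from the choice and is no separate support. On the mock OHT+ array 176 genes exceeded the 5 other arrays by 1 or more and 30 lay under them by as much. The counts were 9 and 10 for the mock OHT- array, and at most 8 either way for any WT array.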

How the data were processed

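RNA of 6 ESC lines was measured on 12 arrays, 1 per line and time, and the mock and WT lines are described here. Per the labels, the deposited log2 signals of the probe sets were made with RMA in Affymetrix Expression Console (no version stated), while the supporting methods describe MAS5 signals, quantile normalisation and averaging per gene. The deposited log2 values differed in distribution, with array medians from 4.66 to 5.67, and were coarse, with 2815 to 3553 distinct values per array, so dim genes can tie. The mock OHT+ array, the only array of the full loss, had both the lowest median (4.66) and the fewest distinct values (2815). The deposited values were therefore quantile-normalised over the 12 arrays.

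Of 45101 probe sets, 64 controls were left out, 932 map to several symbols and 9160 to no listed symbol, and 34945 with 1 symbol could be used. Symbols were updated by Entrez ID (18032 of 18193). Probe sets with a highest signal above 3.94, the 30th percentile, were kept (30374) and averaged over 16432 genes. Changes were fitted with limma 3.58.1 in R 4.3.3 (lmFit, eBayes, two-sided) over all 12 arrays, with a term for each line as a block and, in each of the mock, WT and mutant classes, a term for OHT (3 residual and 2.79 prior degrees of freedom). Levels were fitted by group without the block (6 residual and 3.68 prior degrees of freedom). The 2 arrays of a line thus entered the level p-values as independent. P-values measure the spread between the WT and mutant lines, since the mock class has 1 line. Precision is limited by the number of arrays. The 2 arrays of a line are paired by the line: their deviations from the class means correlated at 0.27 for the WT lines and 0.36 to 0.43 for the mutant lines. The script was tested on simulated data. No array was a copy of another (highest correlation 0.990).

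A rule picked 132 genes: the 15 largest margins on each side, up to 4 members of each list by margin, genes named in the study's text, Rnf2 and Ring1, those nearest a margin of 1 and the 5 smallest p. Not all of these are described above. Some described genes lay outside the rule and were chosen after their values were seen. The rule, the 22 lists and the tests were chosen with earlier results of these data known, so no count over a list is independent support. The list of genes in the study's text had 16 of 21 above both WT changes, 5 of them by 1 or more, and 4 below. Among members not described above, the mock change was 1.29 for Hoxd11, 0.67 for Pax3 and -0.18 for Pax9. Their margins were 0.83, 0.55 and 0.31. The alternatives were the signals as deposited, arrays centred on medians, no filter, no block, only the brightest probe set of a gene, a stricter filter, trended and robust priors, the mock and WT lines only, and each line left out.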

Additional observations from a re-analysis of the deposited data

How the results depend on the processing

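Scaling, filter and prior set most of the counts. With the signals as deposited the mock calls were 922, the day 2 level calls 4, and the genes with a margin of 1 or more 164 above and 647 below. The median difference in change over all genes was then -0.34, against 0.01 in the quantile-normalised data. Relative to that median the list medians were 1.31 against 1.32 for the Hox genes, 1.35 against 1.40 for the germ cell genes, 1.62 against 1.68 for the 2-cell embryo genes and -0.16 against -0.15 for the pluripotency genes. With a stricter filter (mean signal above the overall median) the calls were 17 for mock minus WT change, 883 for the mock change and 27 for the day 2 level, with 239 genes above and 110 below by 1 or more. This filter keeps fewer genes. Trended and robust priors gave 453 calls for mock minus WT change and 1340 for the mock change. In the WT lines 0 genes passed under every alternative run. Without the replicate block, which pairs the 2 arrays of a line, the mock calls were 97. With the mock and WT lines only, both the mock and the day 2 calls were 0.

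With each line left out in turn the mock calls were 0 throughout, and the day 2 calls ran between 0 and 44. With either WT line left out the genes above by 1 or more ran between 790 and 885, and those below between 495 and 582, since a margin from 1 line is easier to reach. Level differences before OHT had 0 calls under every alternative run.

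Of 132 named genes, 124 kept the sign of mock minus WT change under the alternatives that kept them. The stricter filter kept 96 of the 132 and the signals as deposited 130, and 90 of the 96 fitted under every alternative kept their sign in all. The signs that turned as deposited were Aebp2 (-0.18), Plk1 (-0.0187), Rpl13a (-0.14), Tbp (-0.18), Hnf4a (-0.42), Nanog (-0.20) and Itga2 (-0.39). With the brightest probe set Aebp2 was -0.0101, Mcm4 0.0571 and Tbp -0.12, and Tbp was also -0.12 under the stricter filter. Hnf4a was -0.0592 with centred arrays and -0.0461 without a filter, and Itga2 -0.0283 with centred arrays, -0.23 without WT replicate 1 and 0.23 without WT replicate 3. The cause was not tested.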
